A study of Homo sapiens with 51 samples.

Results

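The 42 genes described here copy the genome or prepare cells to do so, and they were taken by name from the 24033 genes of the deposited log2 RPKM table. They comprise 10 genes that license origins, 6 that activate the replicative helicase, 8 of the polymerases and primase, 6 of the sliding clamp and its loader, 3 of the single-strand binding protein RPA, 2 of Okazaki fragment maturation, 3 of nucleotide supply and 4 regulators of the step from G1 to S phase. The rule that lists them uses no measured value, but members and comparisons were chosen with earlier results of these data known. All 42 passed the filter on low values in each of the 22 comparisons.

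HMLE is an immortalised line of human breast epithelium, and HMLE-TWIST1 is the same line carrying TWIST1, a transcription factor that drives epithelial to mesenchymal transition. The study asked what loss of SUV39H1 and SUV39H2, enzymes that methylate lysine 9 of histone H3, does to mesenchymal cells. Total RNA of 51 libraries was sequenced, in 17 groups of 3. Chaetocin, a fungal compound that inhibits these enzymes among other targets, was given to HMLE-TWIST1 cells for 48 h at 100, 150, 200 or 500 nM (day 2), or at 80 nM for 15 h and then washed out for 48 h (day 4). Their controls were HMLE-TWIST1 and HMLE cells given DMSO. Those of day 2 had DMSO for 48 h, and those of day 4 for 15 h, followed by 48 h without it. Small interfering duplexes against both SUV39H1 and SUV39H2 (knockdown) or a scrambled duplex (scramble) were given to HMLE-TWIST1 and to HMLE for 48 h, and cells were taken at day 2 or after 48 h more in fresh medium (day 4). The TWIST1 promoter of the HMLE-TWIST1 line and whether either line is 1 clone are not given in the sources used here. HMLE cells of this kind are generally made with telomerase and the SV40 early region, whose large T antigen binds the retinoblastoma proteins.

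Before S phase the origin recognition complex, CDC6 and CDT1 load the MCM2 to MCM7 ring onto DNA. CDC45 and the GINS complex, with the help of MCM10, turn that ring into an active helicase. DNA polymerase alpha and its primase start each strand, the RFC complex then loads the PCNA clamp, and polymerases delta and epsilon extend. Many of these genes are transcribed in late G1 by E2F factors, which cyclin E and its kinase release from the retinoblastoma proteins and which p21 (CDKN1A) holds back. In a bulk RNA sample, fewer cycling cells and less RNA per cycling cell cannot be told apart.

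Between 7897060 and 15662385 reads per library fell in listed genes, of which the most abundant gene took 2.41 to 11.6%. Levels are CPM, read counts per library size, scaled over all 51 libraries by a trimmed mean of log ratios. The smallest member count behind a group was 89 reads over 3 libraries, for GINS4 in HMLE knockdown cells at day 4. TWIST1 averaged 549.9 ± 78.8 CPM in HMLE-TWIST1 and 5.11 ± 0.46 CPM in HMLE (SD, DMSO day 2, n = 3 each). After knockdown SUV39H1 fell in each of the 4 comparisons, with log2 fold changes of -0.90 to -1.40, and so did SUV39H2, with -0.39 to -1.21. The 8 mammary epithelial markers summed to a median of 26.6 CPM in HMLE-TWIST1 libraries and 7180 CPM in HMLE libraries. The 3 measured leukocyte markers summed to at most 18.9 and 5.98 CPM in the lines in that order, and the 3 endothelial markers to at most 5.02 and 10.3 CPM. The 3 adipocyte markers reached 2.30 CPM in HMLE-TWIST1 and 447 CPM in HMLE, where FABP4 alone averaged 111 ± 49.2 CPM in DMSO cells of day 4 (SD, n = 3). Nothing in the labels says that replicates were separate cultures, so p-values measure only the spread between these libraries.

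Per length of transcript, PCNA, the sliding clamp, was the most abundant member in HMLE-TWIST1 DMSO cells of day 2, at a deposited log2 RPKM of 6.93 ± 0.14 (SD, n = 3). TYMS, which makes thymidylate, followed at 6.61 ± 0.12, RRM1, the large subunit of ribonucleotide reductase, at 6.37 ± 0.04, and MCM4 at 6.09 ± 0.15. MCM3 came next, closer to MCM4 than the SD of MCM4. The lowest members were CDC25A (2.13 ± 0.32), the phosphatase that activates the S-phase kinases, CCNE1 (1.86 ± 0.07) for cyclin E1, and GINS3 (1.44 ± 0.16).

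Across the 17 groups the members differed in how far they varied. The groups compared here can differ in line, treatment, day and the separately scaled part of the deposited table. The mean CPM of MCM10 was 41.6 times higher in its highest group than in its lowest, that of GINS4 21.0 times and that of RRM2, the small subunit of ribonucleotide reductase, 20.6 times. For MCM10 these groups were HMLE-TWIST1 at 500 nM chaetocin and HMLE knockdown cells of day 4. CDC45 (12.8 times), ORC6 (12.4), CDC6 (11.5) and ORC1 (10.8) came next. At the other end stood RPA2 (1.36 times), RFC1 (1.57), PCNA (1.73), POLE (1.75) and RPA1 (1.76). The lowest mean lay in HMLE scramble cells of day 4 for 22 members and in HMLE knockdown cells of day 4 for 15. The 5 members with their lowest mean elsewhere were POLA2, PCNA, POLD3, RFC1 and RPA2.

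**Figure D1:**
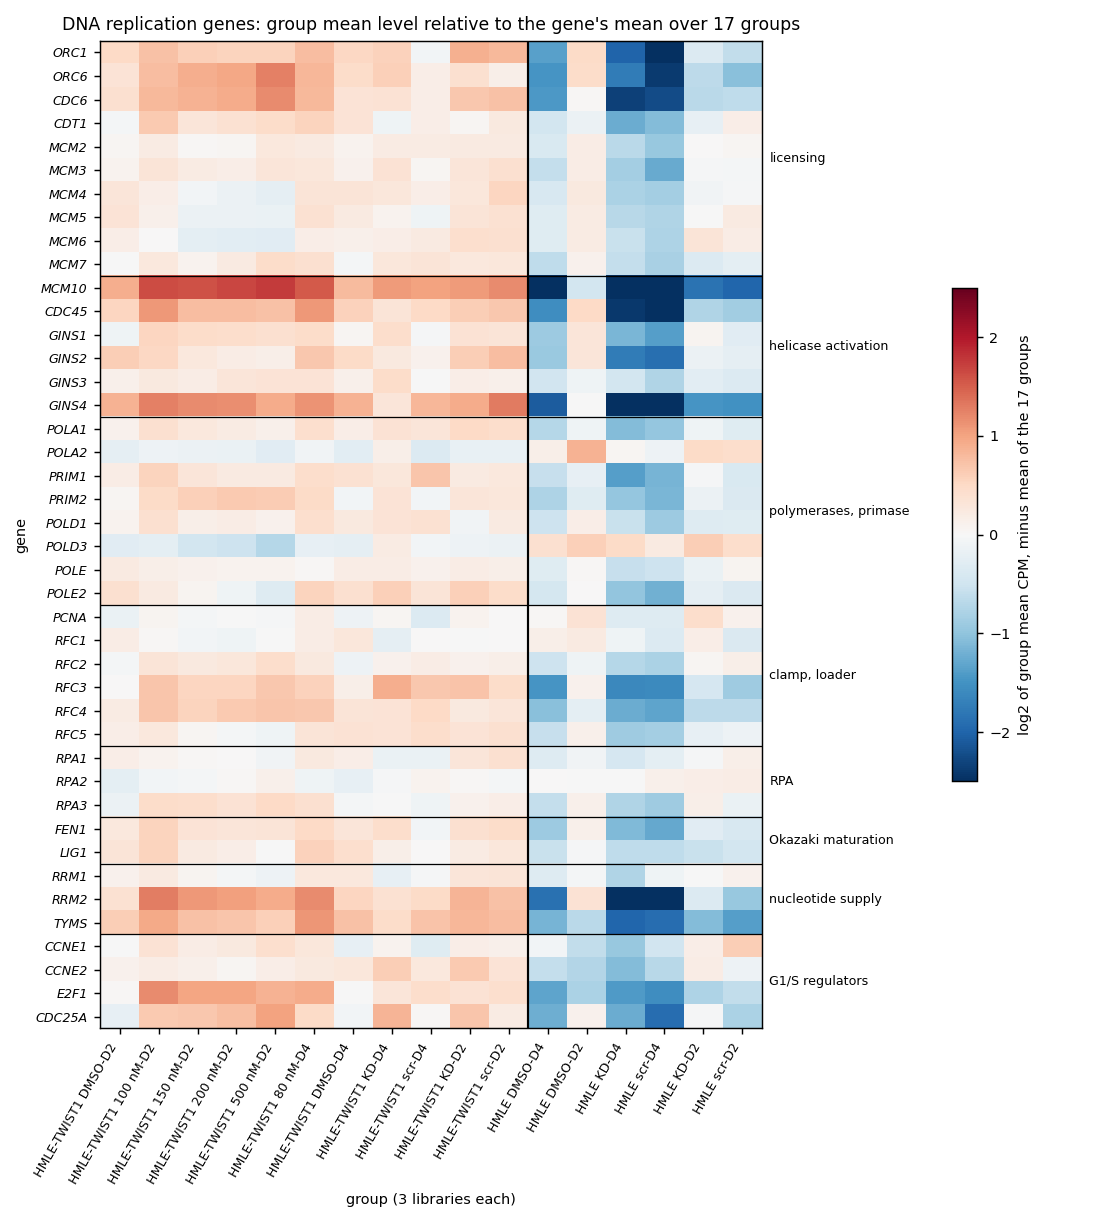
Each row is a member, ordered by role, and each column a group of 3 libraries, with HMLE-TWIST1 left of the black line and HMLE right of it. Colour is the log2 of the group's mean CPM minus the member's mean over the 17 groups. MCM10, GINS4, RRM2 and CDC45 are darkest blue in HMLE at day 4, and POLA2 and POLD3 are lower in HMLE-TWIST1 than in HMLE in DMSO cells.

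The lines differed most at day 4. In scramble cells of day 4, 34 members were higher and 2 lower in HMLE-TWIST1 than in HMLE (limma, adjusted p below 0.05, n = 3 each), where 37.6% of all 17985 genes tested were higher and 36.8% lower. Their median log2 fold change was 1.23, against 0.03 over all genes. In DMSO cells of day 4, 36 were higher and 4 lower, against a background of 33.5% and 33.4% of 17585 genes, with a median of 0.76 against 0.01. Values given for a gene without a unit are log2 fold changes, and every adjusted p is from limma. In both comparisons all 10 licensing genes and all 6 genes of helicase activation were higher.

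MCM10, which joins the helicase as it is activated, stood furthest apart. It had 75.04, 68.3 and 75.5 CPM in HMLE-TWIST1 scramble cells of day 4, against 2.85, 3.41 and 2.70 CPM in HMLE. The lowest HMLE-TWIST1 library thus held far more than the highest HMLE library, a log2 fold change of 4.54 (adjusted p = 6.3e-11, SE 0.21). In DMSO at day 4 it had 74.5, 58.99 and 57.1 CPM in HMLE-TWIST1 and 4.68, 6.91 and 5.18 CPM in HMLE, a log2 fold change of 3.44 (adjusted p = 1.8e-11, SE 0.13). CDC45, a fixed part of the active helicase, had 49.4, 41.96 and 37.8 CPM in HMLE-TWIST1 scramble cells of day 4 and 5.04, 5.33 and 4.73 CPM in HMLE, a log2 fold change of 3.05 (adjusted p = 3.4e-13, SE 0.13). GINS4, a subunit of the GINS complex, had 45.3, 41.7 and 37.6 CPM in HMLE-TWIST1 and 4.37, 2.97 and 3.94 CPM in HMLE in the same cells, a log2 fold change of 3.42 (adjusted p = 3e-13, SE 0.15). None of these groups overlapped.

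RRM2, whose protein sets the supply of deoxynucleotides in S phase, had 255, 254 and 259.5 CPM in HMLE-TWIST1 scramble cells of day 4, against 24.2, 20.9 and 24.6 CPM in HMLE (log2 fold change 3.46, adjusted p = 4.7e-17, SE 0.08). Its partner RRM1 had 334, 319.7 and 302 CPM in HMLE-TWIST1 and 309, 306 and 298 CPM in HMLE, and those groups overlapped (log2 fold change 0.07, adjusted p = 0.297, SE 0.06). ORC6, a subunit of the origin recognition complex, had 19.3, 19.2 and 18.4 CPM in HMLE-TWIST1 and 4.37, 2.89 and 2.48 CPM in HMLE, a log2 fold change of 2.52. ORC1 stood at 2.43, CDC6 at 2.39 and RFC3, of the clamp loader, at 2.26. Among the 6 core ring subunits MCM2 to MCM7 the differences were smaller, from 0.65 for MCM5 to 1.30 for MCM3. ORC1, ORC6 and CDC6 thus lay above the range of the ring subunits, while CDT1, at 1.24, lay within it.

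A few members ran the other way or did not pass. POLD3, an accessory subunit of polymerase delta, had 98.3, 96.6 and 95.6 CPM in HMLE-TWIST1 scramble cells of day 4 and 122, 118 and 116 CPM in HMLE, so every HMLE-TWIST1 library was lower (log2 fold change -0.29, adjusted p = 7.9e-05, SE 0.05). POLA2, the regulatory subunit of polymerase alpha, was lower, at -0.21 (adjusted p = 0.0471, SE 0.09) there and at -0.44 (adjusted p = 0.00042, SE 0.09) in DMSO. With libraries scaled by total reads, which moved the median of all genes by 0.35 in scramble and 0.22 in DMSO at day 4, the signs of POLA2 and POLD3 in scramble cells and of PCNA in DMSO cells turned to 0.16, 0.08 and 0.03. That scaling gave 40 higher and 0 lower members in scramble cells and 37 and 2 in DMSO cells. RFC1, the large subunit of the clamp loader, passed in neither comparison, and its HMLE scramble libraries of day 4 had 174, 87.3 and 149 CPM.

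At day 2 the picture depended on the controls. In DMSO cells 9 members were higher and 4 lower in HMLE-TWIST1 than in HMLE, where 24.1% of 18801 genes were higher and 23.2% lower. In this fit neither share of the members exceeded that of all genes. Their median was 0.05, against 0.01 over all genes. No licensing gene passed in either direction, and CDC45 and RRM2, so far apart at day 4, stood at 0.01 and 0.01. In scramble cells of day 2, 34 members were higher and 4 lower, beside 35.7% and 33.3% of 17888 genes, with a median of 0.60 against 0.04. DMSO and duplex libraries lie in separately scaled parts of the deposited table, and their levels were not tested against each other.

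Among the members that passed in DMSO at day 2, TYMS had 268, 237 and 229.6 CPM in HMLE-TWIST1 and 104, 102 and 94.4 CPM in HMLE, with no overlap (log2 fold change 1.27, adjusted p = 1e-08, SE 0.10). MCM10 had 79.3, 55.9 and 69.8 CPM in HMLE-TWIST1 and 24.1, 28.8 and 27.02 CPM in HMLE (log2 fold change 1.33, adjusted p = 0.00051, SE 0.26). E2F1, an activating E2F factor, was higher by 0.79 (adjusted p = 0.00119, SE 0.18), and CCNE2, cyclin E2, by 0.83 (adjusted p = 0.00022, SE 0.15). POLA2 had 45.9, 35.6 and 40.2 CPM in HMLE-TWIST1 and 79.8, 85.3 and 96 CPM in HMLE, all 3 HMLE-TWIST1 libraries being lower (log2 fold change -1.12, adjusted p = 6.1e-06, SE 0.15). POLD3 was lower, at -0.91 (adjusted p = 3.8e-05, SE 0.14), PCNA at -0.54 (adjusted p = 0.00046, SE 0.11) and GINS1 at -0.42 (adjusted p = 0.0289, SE 0.15). The GINS1 call was lost without HMLE replicate 2 (adjusted p = 0.105) or HMLE-TWIST1 replicate 2 (adjusted p = 0.0945) or 3 (adjusted p = 0.0549). Fitted with the 15 DMSO and 80 nM libraries in place of the 18 of day 2, the comparison gave 15 higher and 7 lower. Over all genes that fit gave 5494 higher and 5498 lower of 18370. The compared groups alone gave 13 higher and 6 lower members, beside 5062 and 5167 of 16919 genes. In both of these fits the share of higher members exceeded that of all genes, unlike in the main fit.

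**Figure D2:**
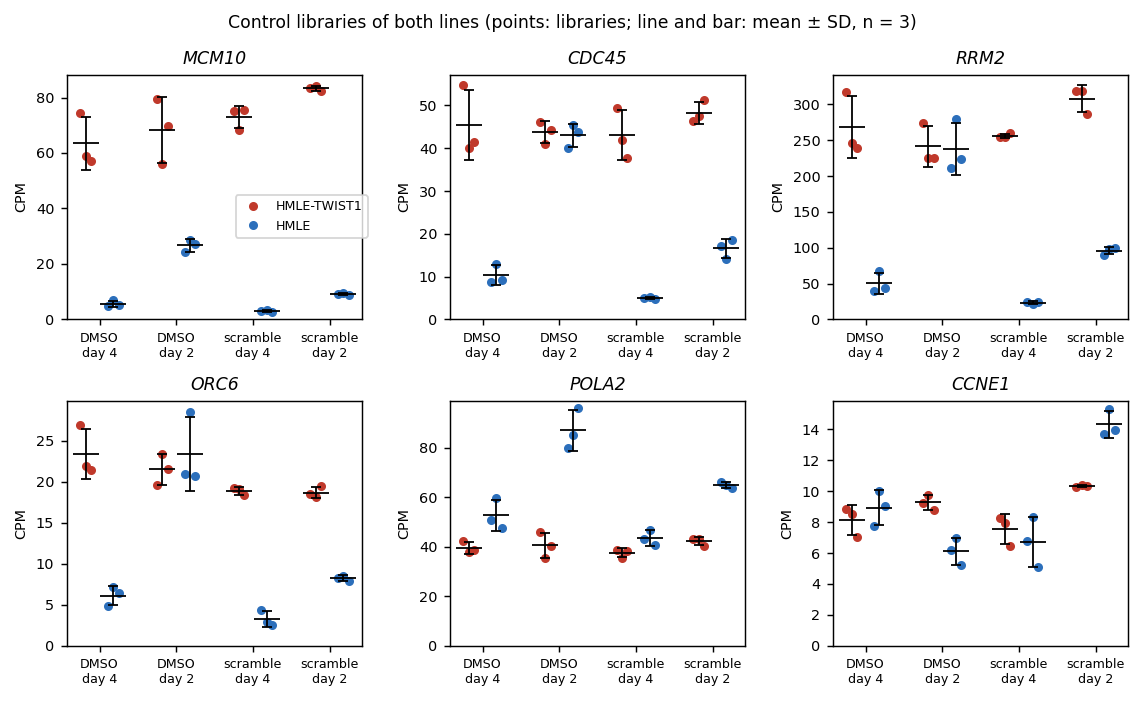
CPM of 6 members in each control library, HMLE-TWIST1 in red and HMLE in blue, with the mean and SD of 3 libraries in black. MCM10, CDC45, RRM2 and ORC6 are near the axis in HMLE at day 4 and level in HMLE-TWIST1, while POLA2 is higher in HMLE in each pair and CCNE1 changes order with the control and the day.

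Other genes of S phase that are not members followed in part. Of 41 further replication genes, 34 were higher and 7 lower in HMLE-TWIST1 scramble cells of day 4 (median 0.99), 32 and 6 at day 2, 31 and 7 in DMSO at day 4, and 9 and 5 in DMSO at day 2. DSCC1 stood at 3.69 and cyclin A2 (CCNA2) at 3.81 in scramble cells of day 4. Of 29 genes that control the G1 to S step, 16 were higher and 9 lower there. CCND1, cyclin D1, was lower in HMLE-TWIST1 at -5.09, and CDKN2B, an inhibitor of the cyclin D kinases, at -3.80. CDKN1A, the inhibitor p21, averaged 93.2 ± 1.91 CPM in HMLE-TWIST1 and 1348 ± 78.1 CPM in HMLE (log2 fold change -3.85, adjusted p = 6.5e-19, SE 0.06). MKI67, a marker of cycling cells, averaged 1283 ± 51.8 CPM in HMLE-TWIST1 and 89.4 ± 3.97 CPM in HMLE (log2 fold change 3.84). All 31 mitosis genes were also higher there, with a median of 3.73. In DMSO at day 2 CDKN1A stood at -0.47 (adjusted p = 0.361, SE 0.40) and MKI67 at -0.08 (adjusted p = 0.69, SE 0.14), and 1 of 31 mitosis genes passed.

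The change from day 2 to day 4 separated the lines. In DMSO cells the length of exposure and the washout changed with the day, and cannot be told apart from it. In HMLE scramble cells 39 members fell and 0 rose by day 4, where 20.6% of 18739 genes fell and 21.7% rose, and the median of the members was -0.80 against 0.00 over all genes. No member rose at an unadjusted p below 0.05 either, and limma with voom weights also gave 0. In HMLE DMSO cells 35 fell and 1 rose, beside 15.3% and 20.5% of 18370 genes, with a median of -0.57 against 0.05. Scaling by total reads, with shifts of -0.13 and -0.16 in the median of all genes, gave 41 and 39 falls and no rise.

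In HMLE-TWIST1 DMSO cells 0 members passed in either direction, where 0.256% of 18370 genes rose and 0.359% fell. By limma at an unadjusted p below 0.05, 2 were higher and 0 lower, and voom weights gave 0. In HMLE-TWIST1 scramble cells 18 fell and 1 rose, where 15.5% of 18739 genes fell and 13.6% rose, with a median of -0.17 against 0.00.

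RRM2 led the falls in HMLE. It had 40.03, 66.8 and 44.4 CPM at day 4 in DMSO, against 211, 279.5 and 223 CPM at day 2, a log2 fold change of -2.24 (adjusted p = 5.1e-07, SE 0.17). In scramble cells it had 24.2, 20.9 and 24.6 CPM at day 4 and 90.4, 97.9 and 99.2 CPM at day 2 (log2 fold change -2.04, adjusted p = 2.1e-18, SE 0.07). HMLE-TWIST1 DMSO cells held 318, 246 and 239 CPM at day 4 and 275, 225 and 225 CPM at day 2, groups that overlapped. MCM10 fell, at -2.22 in HMLE DMSO cells, CDC45 at -2.04, GINS4 at -2.03, ORC6 at -1.89 and ORC1 at -1.81. The clamp loader was uneven: RFC3 fell, at -1.54 and RFC4 at -0.78, while RFC2 fell, at -0.39 and RFC1 stood at -0.05 (adjusted p = 0.653, SE 0.08).

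The 3 subunits of RPA, which coats single-stranded DNA, did not move together. RPA3 fell, at -0.70 (adjusted p = 5.9e-07, SE 0.09) and RPA1 at -0.40 (adjusted p = 1e-07, SE 0.05) in HMLE scramble cells, while RPA2 stood at -0.06 (adjusted p = 0.572, SE 0.08). Both subunits of ribonucleotide reductase fell, but RRM1 at -0.20 only. In HMLE-TWIST1 scramble cells ORC1 fell most, with 20.7, 17.9 and 18.9 CPM at day 4 and 34.1, 35.03 and 36.1 CPM at day 2 (log2 fold change -0.87, adjusted p = 3.8e-07, SE 0.11). PRIM1, the catalytic subunit of primase, was the member that rose there, with 58.5, 60.97 and 60.1 CPM at day 4 and 40.8, 45.3 and 46.3 CPM at day 2 (log2 fold change 0.44, adjusted p = 0.00012, SE 0.08).

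CCNE1 behaved differently with each control. In HMLE DMSO cells it had 7.76, 10.04 and 9.04 CPM at day 4 and 6.22, 6.94 and 5.19 CPM at day 2, so that it was the member that rose (log2 fold change 0.56, adjusted p = 0.00673, SE 0.15). In HMLE scramble cells it had 6.75, 8.31 and 5.07 CPM at day 4 and 13.7, 15.3 and 13.9 CPM at day 2, a fall, at -1.10 (adjusted p = 3.8e-06, SE 0.17). Under total-read scaling the rise in DMSO did not pass (0.37, adjusted p = 0.0618). CCNE2 stood at 0.16 (adjusted p = 0.523, SE 0.17) in DMSO and fell, at -0.58 (adjusted p = 7e-07, SE 0.08) in scramble cells.

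**Figure D3:**
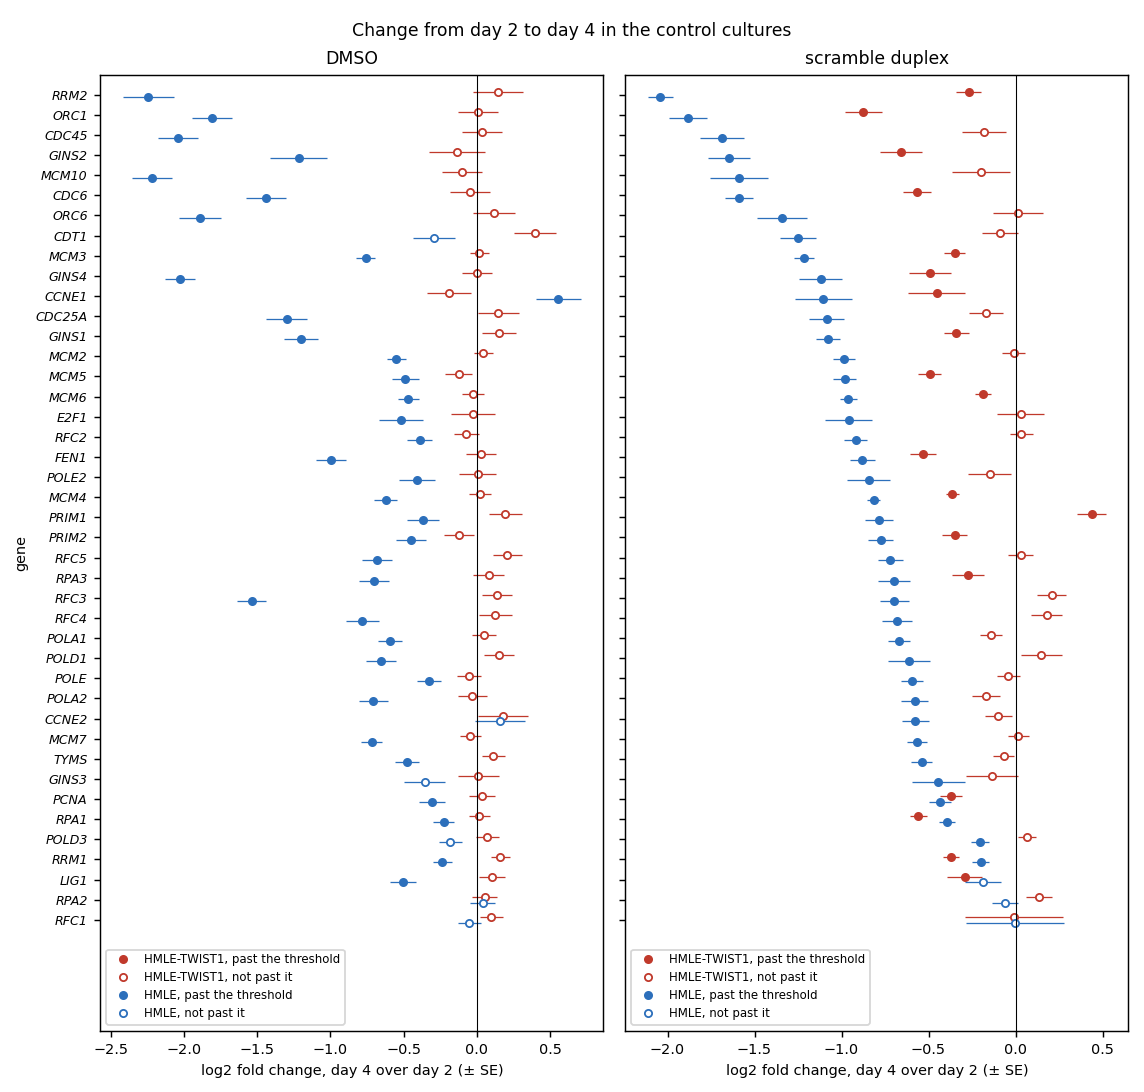
Log2 fold change of each of the 42 members from day 2 to day 4, with its SE, for HMLE-TWIST1 (red) and HMLE (blue), in DMSO and scramble cells. Filled points passed an adjusted p of 0.05. The blue points lie left of the red ones for most members, with CCNE1 on the other side in DMSO and RPA2 near 0 in both lines.

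The difference between the lines was tested as such. In DMSO, 28 members had a higher and 1 a lower change in HMLE-TWIST1 than in HMLE, beside 8.39% and 11.3% of 18370 genes. In scramble cells 35 were higher and 0 lower, beside 16.6% and 17.8% of 18739 genes. At an unadjusted p below 0.05 limma gave 2 lower members there, and voom weights gave 0. RRM2 differed most in both, by 2.39 (adjusted p = 2.1e-05, SE 0.24) in DMSO and 1.77 (adjusted p = 1.4e-13, SE 0.10) in scramble cells. CDC45 differed by 2.07 (adjusted p = 7.2e-07, SE 0.19) and 1.51 (adjusted p = 1.6e-07, SE 0.18) in the same order. CCNE1 differed by -0.75 (adjusted p = 0.0168, SE 0.21) in DMSO and by 0.65 (adjusted p = 0.0321, SE 0.23) in scramble cells, with opposite signs. Both CCNE1 calls hung on single libraries: the DMSO call was lost without HMLE replicate 3 of day 2 (adjusted p = 0.0526) or HMLE-TWIST1 replicate 3 of day 4 (adjusted p = 0.0516), and the scramble call without any of 7 libraries, most of all HMLE replicate 3 of day 4 (adjusted p = 0.125). Total-read scaling gave 38 higher and 0 lower in DMSO and 37 and 0 in scramble cells, after a shift of 0.20 in the median of all genes.

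Around these falls MKI67 and the mitosis list moved by more. MKI67 had log2 fold changes of -2.39 in HMLE DMSO cells and -2.44 in HMLE scramble cells, and 31 and 30 of the 31 mitosis genes fell, with medians of -2.10 and -2.14. Of the 41 further replication genes 30 fell and 2 rose in HMLE DMSO cells, and 35 fell and 2 rose in HMLE scramble cells. MYBL2, a cell cycle transcription factor, fell, at -2.13 in DMSO and TK1, thymidine kinase, at -1.95. RRM2B, a p53-induced subunit of ribonucleotide reductase, rose by 1.84 in scramble cells, where RRM2 fell. CDKN1A averaged 641 ± 50.9 CPM at day 4 and 189 ± 55.1 CPM at day 2 in HMLE DMSO cells (log2 fold change 1.82, adjusted p = 3.4e-06, SE 0.17), and rose by 1.68 (adjusted p = 1.1e-17, SE 0.06) in HMLE scramble cells. In HMLE-TWIST1 it stood at 0.45 (adjusted p = 0.282, SE 0.17) in DMSO and -0.08 (adjusted p = 0.368, SE 0.06) in scramble cells.

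To see what the members share in sequence, the 250 bases before their first listed RefSeq start were read (GRCh38.p14, a later build than the hg19 of the counts). Of the 42 members 35 had such a sequence. They were searched on both strands for 2 forms of the E2F element, a long form (TTTCCCGC, TTTCGCGC, TTTGCCGC or TTTGGCGC) and a short form (GGCGGGA), which overlap where TTTCCCGCC occurs. The CCAAT box of the factor NF-Y was searched as well. At least 1 E2F word lay in 25 of the 35 (71.4%), against 23.7% of 11068 promoters of genes tested, 32.4% of 34 other replication genes and 20.8% of 24 mitosis genes. The long form lay in 14 members (40%), against 4.17% of all promoters, and the short form in 17 (48.6%), against 21.3%. A CCAAT box lay in 21 (60%), against 34.7%. MCM6 held 4 words of the long form. Printed here are the promoters of the 5 members with a sequence whose means varied most over the 17 groups, and of E2F1, which encodes such a factor, each 5′ to 3′ on the strand of the gene, with E2F words in capitals.

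MCM10 (chr10:13161308-13161557, + strand): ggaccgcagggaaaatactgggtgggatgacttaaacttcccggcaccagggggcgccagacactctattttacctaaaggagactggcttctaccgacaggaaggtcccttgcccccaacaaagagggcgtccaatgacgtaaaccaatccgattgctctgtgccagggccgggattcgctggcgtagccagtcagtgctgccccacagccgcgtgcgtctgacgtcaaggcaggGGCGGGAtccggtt
CDC45 (chr22:19479670-19479919, + strand): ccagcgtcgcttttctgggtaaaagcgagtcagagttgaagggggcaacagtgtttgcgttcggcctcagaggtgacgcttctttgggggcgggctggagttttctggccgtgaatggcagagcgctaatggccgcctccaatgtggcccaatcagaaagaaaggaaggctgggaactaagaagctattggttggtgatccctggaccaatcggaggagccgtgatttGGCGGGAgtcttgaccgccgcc
ORC6 (chr16:46689409-46689658, + strand): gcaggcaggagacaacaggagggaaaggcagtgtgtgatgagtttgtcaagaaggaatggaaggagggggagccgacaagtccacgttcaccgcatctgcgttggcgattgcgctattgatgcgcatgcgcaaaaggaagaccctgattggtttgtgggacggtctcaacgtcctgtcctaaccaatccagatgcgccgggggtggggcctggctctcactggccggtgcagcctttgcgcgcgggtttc
CDC6 (chr17:40287629-40287878, + strand): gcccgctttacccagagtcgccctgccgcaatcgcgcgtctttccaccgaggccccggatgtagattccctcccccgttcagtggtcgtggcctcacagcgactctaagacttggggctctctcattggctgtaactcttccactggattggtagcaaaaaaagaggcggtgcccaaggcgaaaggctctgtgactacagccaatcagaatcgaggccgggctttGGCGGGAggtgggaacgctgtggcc
E2F1 (chr20:33686386-33686635, - strand): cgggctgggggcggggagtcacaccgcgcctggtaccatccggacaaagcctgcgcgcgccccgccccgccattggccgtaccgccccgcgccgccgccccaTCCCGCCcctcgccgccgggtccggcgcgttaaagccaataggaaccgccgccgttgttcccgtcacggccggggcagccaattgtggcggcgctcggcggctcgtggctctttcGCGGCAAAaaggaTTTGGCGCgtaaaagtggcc
RRM2 (chr2:10122489-10122738, + strand): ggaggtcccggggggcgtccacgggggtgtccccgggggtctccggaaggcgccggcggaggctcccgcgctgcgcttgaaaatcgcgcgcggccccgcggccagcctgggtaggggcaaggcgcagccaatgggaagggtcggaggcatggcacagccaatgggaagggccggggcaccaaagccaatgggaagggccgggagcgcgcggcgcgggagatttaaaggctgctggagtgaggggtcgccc

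The short word of MCM10, CDC45 and CDC6 ends 7, 15 and 18 bases before the start, and the nearest word of E2F1 12 bases before it. RRM2 and ORC6 have no capitals, so neither form is in these windows, which hold 3 and 2 CCAAT boxes. A word did not mark the members that fell most. In HMLE scramble cells the median change by day 4 was -0.72 over the 25 members with a word and -0.90 over the 10 without, and in HMLE DMSO cells -0.55 and -0.82. These are matches of letters, not measured sites.

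In HMLE-TWIST1 cells at day 2, E2F1, CDC25A, RRM2, RFC3, RFC4 and GINS1 rose at each of the 4 chaetocin doses. How many of all genes did so was not counted. Against DMSO, 9 members rose and 0 fell at 100 nM. The counts were 9 and 2 for 150 nM, 9 and 4 for 200 nM, then 13 and 8 for 500 nM (limma, n = 3 each). Genes that rose and fell made up 11.9% and 11.8% of 18801 tested at 100 nM. For the next doses up these shares were 17.8% and 16.5% (150 nM), 20.9% and 19.1% (200 nM), then 26% and 24.7% (500 nM). The members' share of rises lay well above that of all genes at 100 nM, but only slightly above it from 150 to 500 nM. Their share of falls lay below that of all genes at each dose. At 100 nM 0 members fell with limma, and 0 fell at an unadjusted p below 0.05 or with voom weights either. Their median was 0.26, 0.09, 0.06 and 0.05 from 100 to 500 nM, against 0.01 to 0.02 over all genes. The 4 comparisons share 3 DMSO libraries. The dose libraries lie in another, separately scaled part of the deposited table. Any batch behind that part and the treatment cannot be told apart.

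E2F1 had 34.2, 22.7 and 28.04 CPM in DMSO libraries, and from 100 to 500 nM the doses gave 71.7, 56.3 and 60.5, then 64.7, 53.5 and 46.6, then 62.04, 56.4 and 45.5, then 60.8, 49.7 and 40.4 CPM. No treated library fell to the DMSO level, and the log2 fold change was 1.13 (adjusted p = 0.00031, SE 0.18) at 100 nM and 0.79 (adjusted p = 0.00137, SE 0.18) at 500 nM. CDC25A had 23.2, 14.9 and 17 CPM in DMSO libraries, 41.3, 29.1 and 28.9 CPM with 100 nM and 48.2, 42.4 and 36.03 CPM with 500 nM. It rose by 0.83 (adjusted p = 0.00881, SE 0.21) at 100 nM, a call lost without DMSO replicate 2 (adjusted p = 0.0524), and by 1.17 (adjusted p = 0.0002, SE 0.21) at 500 nM. RRM2 had 275, 225 and 225 CPM in DMSO libraries, 564, 401 and 383 CPM with 100 nM and 389.5, 338 and 333 CPM with 500 nM, and rose by 0.86 (adjusted p = 0.00117, SE 0.16) and 0.52 (adjusted p = 0.0123, SE 0.16) at those doses. The replicate 1 library was the highest of its 3 for E2F1, CDC25A, RRM2 and MCM10 at each of the 4 doses.

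The clamp loader subunits RFC3 and RFC4 and the GINS subunit GINS1 rose in all 4 comparisons, by 0.62, 0.45 and 0.47 at 500 nM. PRIM2, the regulatory subunit of primase, rose by 0.51, 0.57 and 0.56 from 150 to 500 nM. ORC6 had 43.8, 41.8 and 35.5 CPM at 500 nM and 19.6, 23.4 and 21.6 CPM in DMSO, without overlap (log2 fold change 0.86, adjusted p = 0.00029, SE 0.16). At the same dose MCM10 rose by 0.79 (adjusted p = 0.0198, SE 0.26) and CDC6 by 0.70 (adjusted p = 0.0346, SE 0.26). MCM10 lost its call without DMSO replicate 2 (adjusted p = 0.0864) or 500 nM replicate 1 (0.62, adjusted p = 0.0877) or 2 (adjusted p = 0.0501). CDC6 lost its call without any of 4 libraries, most of all 500 nM replicate 1 (0.50, adjusted p = 0.152). At 150 nM, where 11 members passed, 7 did without DMSO replicate 2, 6 without 150 nM replicate 1 and 7 without 150 nM replicate 2.

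The 8 members that fell at 500 nM were MCM4, MCM5, MCM6, GINS2, POLD3, POLE2, RPA1 and LIG1. MCM5 had 107, 80.1 and 59.3 CPM at 500 nM and 127, 108 and 114 CPM in DMSO (log2 fold change -0.58, adjusted p = 0.00369, SE 0.15), its highest treated library just below the lowest DMSO one. MCM4 fell, at -0.58 (adjusted p = 0.00031, SE 0.11) and MCM6 at -0.50 (adjusted p = 0.0162, SE 0.16), the MCM6 call being lost without DMSO replicate 2 (adjusted p = 0.0616) or 500 nM replicate 2 (adjusted p = 0.0529) or 3 (adjusted p = 0.101), while MCM2, MCM3 and MCM7 stood at 0.16, 0.18 and 0.38 and did not pass. POLE2, a subunit of polymerase epsilon, had 26.7, 19.5 and 24.3 CPM in DMSO libraries, 18.9, 21.6 and 21.6 CPM with 100 nM and 19.2, 11.5 and 11.8 CPM with 500 nM. Its fall at 500 nM was -0.79 (adjusted p = 0.00115, SE 0.17), and POLD3 fell, at -0.45 (adjusted p = 0.0134, SE 0.14). LIG1, the ligase that seals Okazaki fragments, fell, at -0.37 (adjusted p = 0.00732, SE 0.10), GINS2 at -0.53 (adjusted p = 0.0238, SE 0.19) and RPA1 at -0.28 (adjusted p = 0.0113, SE 0.09). Scaling by total reads, which moved the median of all genes by 0.16 to 0.22, gave 19, 15, 16 and 20 rises and 0, 0, 0 and 2 falls from 100 to 500 nM. The deposited values, shifted by 0.11 to 0.15, gave 19, 10, 11 and 16 rises and 0, 0, 1 and 3 falls. Of the falls at 500 nM, LIG1 did not pass under total-read scaling (-0.14, adjusted p = 0.257) or with deposited values (-0.27, adjusted p = 0.0635), nor did MCM6 (-0.27, adjusted p = 0.187, and -0.40, adjusted p = 0.0769). MCM5 did not pass under total-read scaling (-0.35, adjusted p = 0.0748). GINS2, POLD3 and RPA1 passed under neither, and MCM4 and POLE2 under both.

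**Figure D4:**
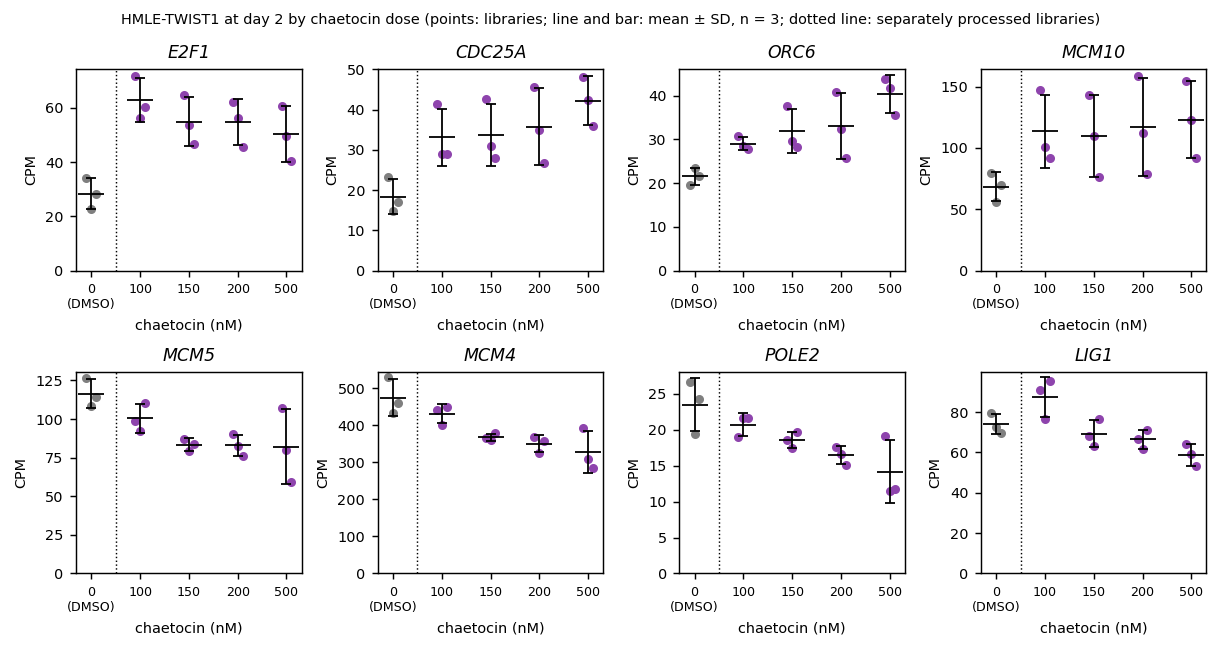
CPM of 8 members in each HMLE-TWIST1 library of day 2, by chaetocin dose, with the mean and SD of 3 libraries in black and DMSO left of the dotted line. E2F1, CDC25A and ORC6 sit above DMSO at each dose, and MCM5, MCM4 and POLE2 sit below it at 500 nM.

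The dose libraries lie in the same part of the deposited table. Within them 6 members fell and 0 rose at 500 nM relative to 100 nM, beside 7.89% and 9.05% of 18801 genes. By limma at an unadjusted p below 0.05, 15 were lower and 1 higher, and voom weights gave 6 and 0. Libraries with the same replicate number deviated together across doses, and with the number as a replicate block 11 fell and 1 rose. LIG1 had 64.02, 59.1 and 53.1 CPM at 500 nM and 90.8, 76.6 and 95.7 CPM at 100 nM, without overlap (log2 fold change -0.59, adjusted p = 0.00298, SE 0.10). POLE2 fell, at -0.60 (adjusted p = 0.0256, SE 0.17), POLD3 at -0.45, MCM4 at -0.42, TYMS at -0.35 and POLD1, the catalytic subunit of polymerase delta, at -0.31. Fitted with the 2 groups alone, 0 members passed. Without replicate 3 of 100 nM, or without replicate 2 or 3 of 500 nM, 1 passed, and without replicate 1 of 500 nM 13 did.

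Beside these members MKI67 rose by 0.93 at 100 nM and 0.61 at 500 nM, and 27, 25, 27 and 24 of 31 mitosis genes rose from 100 to 500 nM. Of 41 further replication genes 10, 11, 10 and 11 rose and 1, 3, 3 and 7 fell. Among the other genes of the G1 to S step, CCND1 stood out with a rise of 2.39 at 500 nM, followed by CDKN2D (1.23), E2F5 (0.98) and E2F7 (0.97), a repressing E2F factor. RRM2B rose by 1.47. CDKN1A averaged 222 ± 110.0 CPM at 500 nM and 136 ± 26.7 CPM in DMSO, a change that did not pass (log2 fold change 0.56, adjusted p = 0.252, SE 0.40).

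After 15 h of 80 nM chaetocin and 48 h without it, members rose only. At day 4, 20 rose and 0 fell relative to DMSO, beside 19.4% and 17.2% of 17585 genes, with a median of 0.24 against 0.01. At an unadjusted p below 0.05 limma gave 23 higher and 0 lower, and voom weights gave 20 and 0. Both arms lie in the same part of the deposited table. E2F1 had 56.1, 47.9 and 53.03 CPM after chaetocin, against 31.5, 25.5 and 25.7 CPM in DMSO (log2 fold change 0.94, adjusted p = 6.2e-05, SE 0.13). MCM10 had 107, 102 and 109.5 CPM after chaetocin and 74.5, 58.99 and 57.1 CPM in DMSO (log2 fold change 0.77, adjusted p = 0.00053, SE 0.13). The treated libraries lay above every DMSO library for both. RRM2 rose by 0.68 (adjusted p = 0.0174, SE 0.18) and CDC25A, with 28.9, 29.6 and 30.1 CPM after chaetocin and 22.4, 18.03 and 19.8 CPM in DMSO, by 0.57 (adjusted p = 0.00142, SE 0.12). RRM2 no longer passed with the replicate block (0.68, adjusted p = 0.0582) or without 80 nM replicate 1 (adjusted p = 0.0512) or DMSO replicate 2 (0.62, adjusted p = 0.0659) or 3 (adjusted p = 0.0589).

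The rises covered 4 of 6 genes of helicase activation, 4 of 6 of the clamp and its loader, 4 of 10 of licensing and 3 of 4 G1/S regulators, but neither gene of Okazaki maturation. PRIM2 rose by 0.57, CDC45 by 0.52, CCNE1 by 0.51, MCM7 by 0.47 and PCNA by 0.35. MCM4, MCM5 and POLE2, which fell at 500 nM on day 2, stood at 0.03, 0.19 and 0.18 here, at another dose, time and schedule, and none of them passed. Of the 41 further replication genes 17 rose and 1 fell, and 26 of 31 mitosis genes rose. CCND1 rose by 2.13, MKI67 by 0.54, and CDKN1A stood at -0.09 (adjusted p = 0.387, SE 0.07).

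After knockdown of SUV39H1 and SUV39H2 the median of the members moved little, while single members moved further. In HMLE-TWIST1, 13 rose and 4 fell at day 4, beside 19% and 19% of 17985 genes, and 3 rose and 3 fell at day 2, beside 7.54% and 8.26% of 17888. In HMLE, 8 rose and 4 fell at day 4, beside 11.7% and 14.4% of 17985, and 15 rose and 5 fell at day 2, beside 14.1% and 14.7% of 17888. The members' share of rises exceeded that of all genes in each comparison except HMLE-TWIST1 at day 2. Their share of falls lay below that of all genes in each. The medians were 0.07, -0.03, 0.06 and 0.09 in that order, and those of all genes within 0.01 of 0. Without HMLE knockdown replicate 1 of day 2, 8 rose and 4 fell in HMLE at day 2, and without HMLE-TWIST1 scramble replicate 3 or knockdown replicate 2 of day 2, 1 rose and 2 fell there in HMLE-TWIST1.

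CDC25A rose in each line at each day. In HMLE-TWIST1 at day 4 it had 37.96, 38.01 and 37.5 CPM after knockdown and 23.3, 21.1 and 20.2 CPM with scramble (log2 fold change 0.80, adjusted p = 1.9e-05, SE 0.11). At day 2 it had 35.7, 31.4 and 34.9 CPM after knockdown and 22.4, 25.3 and 24.8 CPM with scramble (log2 fold change 0.48, adjusted p = 0.00171, SE 0.09). In HMLE it had 9.32, 7.69 and 9.76 CPM after knockdown and 5.42, 6.30 and 5.29 CPM with scramble at day 4, and 21.9, 17.7 and 22.4 CPM and 11.7, 12.2 and 12.7 CPM at day 2. The log2 fold changes there were 0.62 (adjusted p = 0.00041, SE 0.11) and 0.78 (adjusted p = 9.7e-06, SE 0.09), and in none of the 4 pairs did the libraries overlap.

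ORC1 and ORC6, the members from the origin recognition complex, rose at day 4 in both lines. ORC1 had 28.3, 31.9 and 29.9 CPM after knockdown and 20.7, 17.9 and 18.9 CPM with scramble in HMLE-TWIST1 (log2 fold change 0.63, adjusted p = 0.00051, SE 0.12), and 5.16, 4.69 and 5.26 and 3.04, 3.32 and 3.94 CPM in HMLE (0.52, adjusted p = 0.00377, SE 0.12). ORC6 rose by 0.41 (adjusted p = 0.0496, SE 0.16) in HMLE-TWIST1 and 0.64 (adjusted p = 0.00612, SE 0.16) in HMLE, and MCM3 by 0.30 and 0.39. GINS4 fell in 3 of the 4 comparisons. In HMLE-TWIST1 it had 27.7, 29.4 and 29.96 CPM after knockdown and 45.3, 41.7 and 37.6 CPM with scramble at day 4 (log2 fold change -0.53, adjusted p = 0.00856, SE 0.15), and fell, at -0.38 (adjusted p = 0.00772, SE 0.09) at day 2. The call at day 4 was lost without scramble replicate 1 (adjusted p = 0.0662) or knockdown replicate 1 (adjusted p = 0.0594). In HMLE at day 4 it held only 2.30 to 3.10 CPM after knockdown and 2.97 to 4.37 CPM with scramble, groups that overlap, and its call (-0.43, adjusted p = 0.0379, SE 0.15) was lost with voom weights (adjusted p = 0.218) and without any of 4 of its 6 libraries, at worst scramble replicate 1 (adjusted p = 0.151).

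RRM1 and RRM2 parted in HMLE. RRM2 had 151, 143 and 142 CPM after knockdown and 90.4, 97.9 and 99.2 CPM with scramble at day 2 (log2 fold change 0.63, adjusted p = 4.2e-07, SE 0.06), while RRM1 stood at -0.08 (adjusted p = 0.217, SE 0.05). At day 4 RRM1 had 179, 194 and 206 CPM after knockdown and 309, 306 and 298 CPM with scramble, a fall, at -0.67 (adjusted p = 7.4e-08, SE 0.06), and RRM2 stood at -0.10 (adjusted p = 0.375, SE 0.08). In HMLE-TWIST1 at day 4 RRM1 fell, at -0.17 (adjusted p = 0.019, SE 0.06), FEN1, the flap nuclease of Okazaki fragments, rose by 0.49 (adjusted p = 5.3e-05, SE 0.08), POLA2 rose by 0.47 (adjusted p = 0.00046, SE 0.09), and PRIM1 fell, at -0.43 (adjusted p = 0.00085, SE 0.09).

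The cyclin E genes gave the largest differences between the lines at day 4. CCNE2 had 96.99, 89.3 and 100.0 CPM after knockdown and 76, 77.2 and 70.1 CPM with scramble in HMLE-TWIST1 at day 4, a rise of 0.34 (adjusted p = 0.00146, SE 0.07). In HMLE at day 4 it had 31.8, 28.3 and 28.4 CPM after knockdown and 41.3, 36.6 and 37.5 CPM with scramble, a fall, at -0.40 (adjusted p = 0.00069, SE 0.07). The effects differed by 0.74 (adjusted p = 7.9e-05, SE 0.11). At day 2 CCNE2 rose by 0.30 in HMLE-TWIST1 and 0.33 in HMLE, a difference of -0.03 (adjusted p = 0.899, SE 0.11). The day 2 rise in HMLE-TWIST1 was lost without scramble replicate 1 (adjusted p = 0.0608) or 3 (adjusted p = 0.0655) or knockdown replicate 2 (adjusted p = 0.0672). CCNE1 had 9.19, 9.35 and 11.3 CPM after knockdown and 8.26, 7.95 and 6.47 CPM with scramble in HMLE-TWIST1 at day 4, and 5.43, 3.66 and 5.45 and 6.75, 8.31 and 5.07 CPM in HMLE. Neither effect passed alone (0.37, adjusted p = 0.134, SE 0.19, and -0.46, adjusted p = 0.0822, SE 0.19), but they differed by 0.84 (adjusted p = 0.0317, SE 0.27). That call was lost without any of 5 libraries, at worst HMLE knockdown replicate 2 (adjusted p = 0.0864).

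Over all members, the knockdown effect at day 4 was higher in HMLE-TWIST1 than in HMLE for 5 and lower for 3, beside 12.2% and 10.7% of 17985 genes. RRM1 (0.50), PCNA (0.39) and FEN1 (0.32) were higher, and MCM2 (-0.29), MCM6 (-0.27) and MCM7 (-0.25) lower. At day 2 it was higher for 1 and lower for 7, beside 6.36% and 5.83% of 17888. RRM2 differed most there, at -0.53 (adjusted p = 0.00039, SE 0.08). These counts rest on single libraries. Leaving out 1 library at a time gave 1 to 6 members at day 2 and 3 to 9 members at day 4. At day 2 the 1 came without HMLE knockdown replicate 1, and at day 4 the 3 came without HMLE-TWIST1 knockdown replicate 3. The calls of RRM2 at day 2 and of CCNE2, RRM1 and PCNA at day 4 passed without each library in turn.

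**Figure D5:**
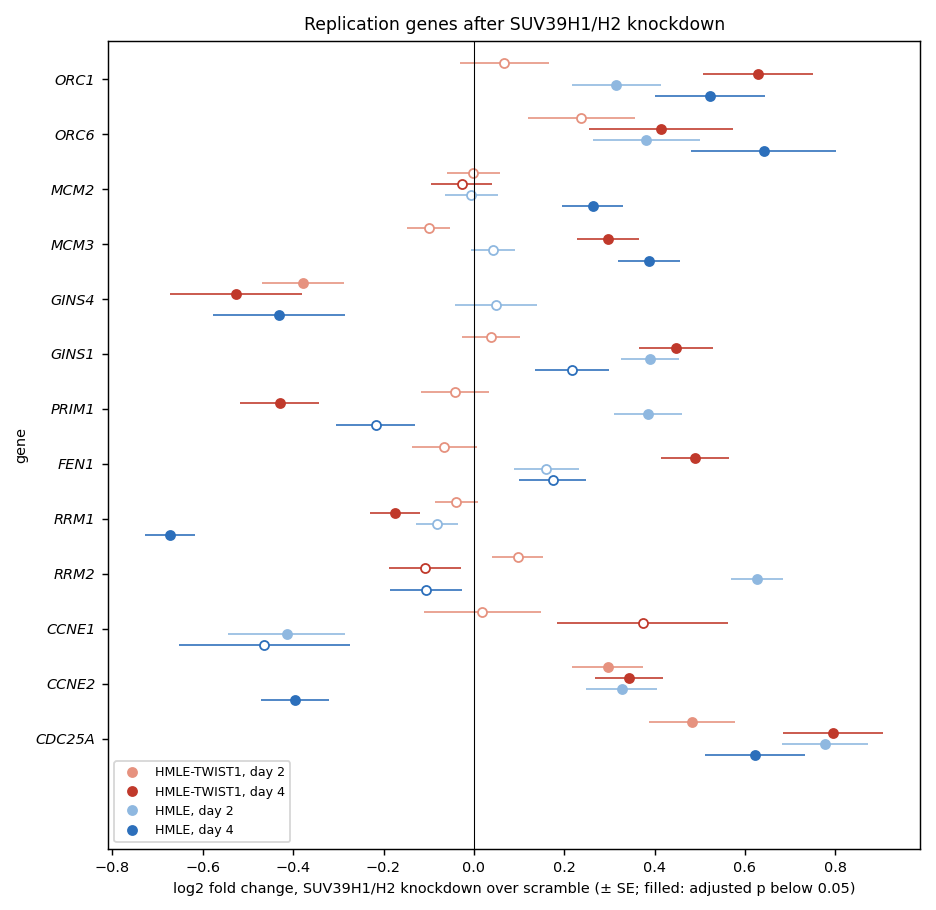
Log2 fold change, with its SE, of 13 members after knockdown in each line and day, where filled points passed an adjusted p of 0.05. CDC25A lies right of 0 in all 4 comparisons, GINS4 left of it in the 3 that passed, and CCNE2 left of it only in HMLE at day 4.

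MKI67 stood at -0.22 (adjusted p = 0.0215, SE 0.07) in HMLE-TWIST1 at day 4 and 0.35 (adjusted p = 5.8e-05, SE 0.05) in HMLE at day 2. Of 31 mitosis genes, 18 fell and 0 rose in HMLE-TWIST1 at day 4 (median -0.40), and 26 rose and 0 fell in HMLE at day 2 (median 0.36). Of the 41 further replication genes 9 rose and 10 fell in HMLE-TWIST1 at day 4, and 15 rose and 5 fell in HMLE at day 2. CCND1 rose by 1.21 and SKP2, which targets p27 for destruction, by 0.71 in HMLE-TWIST1 at day 4. CDKN1A fell, at -0.54 (adjusted p = 6.2e-06, SE 0.06) in HMLE at day 4 and stood at -0.10 (adjusted p = 0.258, SE 0.06) in HMLE-TWIST1.

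Some counts may include reads of other genes. In GENCODE 29, exons of 18 of the 42 members overlap exons of another gene. On the opposite strand these include TYMS with ENOSF1, MCM7 with AP4M1, FEN1 with TMEM258 and PRIM1 with HSD17B6. Whether counting used strand is not given in the sources used here. Exons of RRM2, POLA2, POLD1, PRIM1 and FEN1 overlap a protein-coding gene on the same strand, which counting by strand would not separate. Named pseudogenes exist for 7 members, PCNA, RFC3, RFC5, RPA2, FEN1, RRM2 and TYMS, so that their counts could be split or joined with those copies.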

How the data were processed

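The authors deposited log2 RPKM values (reads scaled by transcript length and library size, log2 scale) for total RNA, with STAR, HTSeq and hg19 named in the submitters' processing notes and no versions. The deposited log2 table joins 3 separately scaled blocks of 15, 24 and 12 libraries, told apart by which genes they list. The labels used here name no batch. Whole reads were recovered from it for 100.0% of values (tolerance 0.0001). A count table with 81 columns that name no sample was not used. The design had assumed counts, but the file held log2 values, so limma 3.58.1 (R 4.3.3) was used on log2 CPM of the recovered reads, with a prior count of 2, trimmed-mean scaling, an intensity trend, robust variances and a filter of at least 10 reads in 3 libraries. Benjamini-Hochberg adjustment ran over all genes tested, with a threshold of 0.05. Library depth limits the precision of low members.

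Groups came from the labels. All 42 members are named, with TWIST1, SUV39H1 and SUV39H2 as label checks, MKI67 and CDKN1A, and up to 5 genes a comparison from the lists of other replication and G1/S genes with the largest change past the threshold. The members, lists and comparisons were chosen with earlier results of these data known. Replicate numbers were taken to pair libraries where every correlation of same-numbered deviations exceeded 0.1. Only the comparison of 500 with 100 nM met this, at 0.199, 0.203 and 0.44. Alternatives changed the scaling, prior count, filter, values, weights, block, libraries in the fit, or left out 1 library. The fit was tested on simulated data. Promoters came from RefSeq (GRCh38.p14).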

Additional observations from a re-analysis of the deposited data

Results flagged for a closer look

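The change from day 2 to day 4 differed between the lines. In DMSO cells 29 members differed between HMLE-TWIST1 and HMLE, led by RRM2 (2.39) and with CDC45 at 2.07 and CCNE1 at -0.75 (limma interaction term, log2 scale, n = 3 a group). In scramble cells 35 differed, with RRM2 at 1.77, CDC45 at 1.51 and CCNE1 at 0.65. Over all genes tested, 8.39% were higher and 11.3% lower in DMSO cells, and 16.6% and 17.8% in scramble cells. Whether the opposite signs of CCNE1 in DMSO and scramble cells differ from each other was not tested. Those libraries lie in separately scaled parts of the deposited table.

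The knockdown effect also differed between the lines for some members. Over all genes tested, 6.36% had a higher and 5.83% a lower effect in HMLE-TWIST1 at day 2, and 12.2% and 10.7% at day 4. At day 2, 8 members differed between HMLE-TWIST1 and HMLE: RRM2 (-0.53), GINS4 (-0.43), PRIM1 (-0.43), GINS1 (-0.35), PCNA (-0.29), TYMS (-0.26), MCM4 (-0.24) and POLE (0.24). At day 4, 8 differed: CCNE1 (0.84), CCNE2 (0.74), RRM1 (0.50), PCNA (0.39), FEN1 (0.32), MCM2 (-0.29), MCM6 (-0.27) and MCM7 (-0.25). A positive value means a higher effect in HMLE-TWIST1. At day 4 the members' shares lay below those of all genes.
Both CCNE1 calls between days, and the knockdown calls at day 2 other than RRM2 and at day 4 other than CCNE2, RRM1 and PCNA, were each lost when at least 1 library was left out.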

How the results depend on the processing

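Of 334 alternative counts of members called, 296 stayed within 1.5 times the reported one. The 15-library fit gave 22 for the lines in DMSO at day 2. At 100 nM, total-read scaling gave 19, deposited values 19 and the replicate block 16. For 500 against 100 nM, the replicate block gave 12, the groups alone 0, and the 12 dose libraries with the replicate block, chosen after seeing the data, 19. For the knockdown effect by line at day 2, median-of-ratios scaling, total-read scaling, no filter and deposited values each gave 5. With 1 library left out, counts ran from 6 to 10 at 100 nM, 6 to 13 at 150 nM, 1 to 13 for 500 against 100 nM, 12 to 19 for knockdown in HMLE and 3 to 6 in HMLE-TWIST1 at day 2, and 1 to 6 and 3 to 9 for knockdown by line at day 2 and day 4. In the other comparisons not every correlation of same-numbered deviations exceeded 0.1. In the washout comparison they ran from 0.018 to 0.196. The main fits used no replicate block.

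Of 823 alternatives for 90 named gene results, 753 kept direction and side of the threshold and 69 lost the threshold. By result, 57 of the 90 kept both in every alternative, and 33 did not in at least 1. POLD3 between the lines in scramble cells of day 4 reversed, at 0.076, under total-read scaling. Over all genes, HMLE-TWIST1 DMSO cells had 47 rises and 66 falls by day 4, against 14 and 18 with deposited values, 91 and 149 with the replicate block, and 29 and 33 with the groups alone. For 500 against 100 nM the 1701 rises and 1484 falls became 432 and 177 with the groups alone, and 3132 and 3007 with dose libraries and block. The cause was not tested. Depth limits MCM10 and GINS4 most in HMLE at day 4.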
